A study of Homo sapiens with 4 samples.

Results

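Of the 47251 genes in the gene table, 10 that extracellular signal-regulated kinase (ERK) signaling is known to induce were followed in AGS cells, an established line from a human gastric adenocarcinoma. They were taken by name, with earlier results of these data known. The list held the phosphatases DUSP4, DUSP5 and DUSP6, the feedback inhibitors SPRY2, SPRY4 and SPRED1, the transcription factors ETV4, ETV5 and EGR1, and PHLDA1. RNA was sequenced from 2 libraries of cells with a short hairpin RNA (shRNA) against MFAP2, a protein of extracellular microfibrils, and from 2 libraries of cells with a scrambled control shRNA. The titles of both sh-MFAP2 libraries carry sh1, whereas their descriptions read sh1 and sh2 (and those of the controls control1 and control2). They are treated here as replicates of 1 shRNA, after the titles. If 2 shRNAs were used, differences between them and between replicates cannot be told apart. All cells had been infected with lentivirus and selected with puromycin, the control cells included, and no other treatment is labelled. The sources do not say that the replicates were separate cultures, so the p-values measure only the spread between these libraries, which may be technical. In the study, ERK1/2 activity was examined after changes of MFAP2 in cells of this kind, and the transcripts here give a readout of ERK signaling on the RNA level.

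In this pathway, receptors and integrins load RAS with GTP, RAS recruits RAF kinases, RAF phosphorylates MEK, and MEK phosphorylates ERK. Active ERK phosphorylates transcription factors such as ELK1, which sits with serum response factor on CArG boxes of immediate early promoters, and it relieves genes such as DUSP6, SPRY4, ETV4 and ETV5 from the repressor CIC. Several of the induced proteins act back on the pathway, so that their transcripts are commonly read as a record of recent ERK activity.

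Promoter sequence is shown for the members that carry one of the letter patterns tied to this machinery. A match shows only letters, and binding by ELK1, serum response factor or CIC was not tested. For CIC only cores of the site were searched, so a match need not be a full site. The RefSeq promoter table on GRCh38.p14 held 8 promoters of 6 members (DUSP6, SPRY2, SPRY4, SPRED1, EGR1 and PHLDA1), each from 250 bases before the annotated start to 50 bases after it. On both strands, a CArG box, the ETS site CCGGAAG, the AP-1 site TGANTCA and the CIC cores TGAATGA and TGAATGG were searched. The matches found did not overlap one another. EGR1 held 2 CArG boxes and DUSP6 held 1 TGAATGA core, shown 5′ to 3′ with the match in capitals and 8 bases on either side:
EGR1, CArG box at position -105 from the start, chr5:138465366-138465391, plus strand: cggtcctgCCATATTAGGgcttcctg
EGR1, CArG box at position -83 from the start, chr5:138465388-138465413, plus strand: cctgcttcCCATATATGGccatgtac
DUSP6, TGAATGA at position -133 from the start, chr12:89352620-89352642, minus strand: cgtttttgTGAATGAcaaactca
A CArG box was held by 454 of all 35116 promoters (1.29%), and TGAATGA by 1408 (4.01%). CCGGAAG (10.3% of promoters), TGANTCA (7.71%) and TGAATGG (3.2%) had no match in the 8 promoters of members, which says only that these letters were not in those windows.

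Values are the authors' deposited ones, taken as FPKM (fragments scaled by transcript length and library depth). Gene values were not sums of the transcript values. In sh-MFAP2 replicate 1, DUSP4 was at 27.1 FPKM as a gene and its transcript ENST00000240100 at 35.3 FPKM. How gene values were made is not stated, so levels of different genes can be compared only roughly. The target MFAP2 had values of 0 FPKM in the sh-MFAP2 libraries and of 0.0116 and 0.0138 FPKM in the control libraries. The control values are about 2 and 3 reads at the depth inferred below. They are too low to check the labels or to show here that MFAP2 was lowered. The paper reports the knockdown in AGS cells by western blot and quantitative PCR. The AGS label was read against 6 epithelial markers, all of which averaged above 1 FPKM. EPCAM lay between 193 and 210 FPKM, whereas CLDN4 was at 47.1 FPKM in sh-MFAP2 replicate 1 and at most 0.551 FPKM elsewhere. Of 12 markers of other cells, 10 stayed at or under 0.0656 FPKM in every library, including the defining markers DCN, PTPRC and PECAM1. The other 2 were lower in both sh-MFAP2 libraries, COL1A1 (2.07 to 2.27 against 4.36 to 4.92 FPKM) and CD68 (3.12 to 3.13 against 7.20 to 7.85 FPKM), and their part in the results was not tested. Summed levels of the fibroblast list were 2.11 to 2.34 FPKM with sh-MFAP2 and 4.39 to 4.96 FPKM in controls, of the leukocyte list 3.17 to 3.22 and 7.23 to 7.89 FPKM, and of the endothelial list at most 0.0380 FPKM. The depth was not stated. Read as whole-read steps among low values, it was about 54700000 to 74900000 reads per library.

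Members were expressed over a wide range. By mean FPKM over the 4 libraries the order was DUSP4 (26.2), EGR1 (24.3), DUSP6 (6.13), SPRY2 (6.13), PHLDA1 (5.67), SPRED1 (4.81), ETV4 (4.01), ETV5 (3.46) and SPRY4 (0.662), with DUSP5 listed at 0 throughout. On gene values, DUSP4 and EGR1 overlapped each other across libraries and lay above every other member in each library. On transcript values they did not overlap, since ENST00000240100 of DUSP4 alone was at 32.7 to 35.5 FPKM, above EGR1 in every library. From DUSP6 to ETV5 the ranges of neighbours overlapped, so that their order is not fixed by these values. Of the 10 members, 8 passed the filter of a mean of at least 1 FPKM that was set for testing, and DUSP5 and SPRY4 did not.

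**Figure D1:**
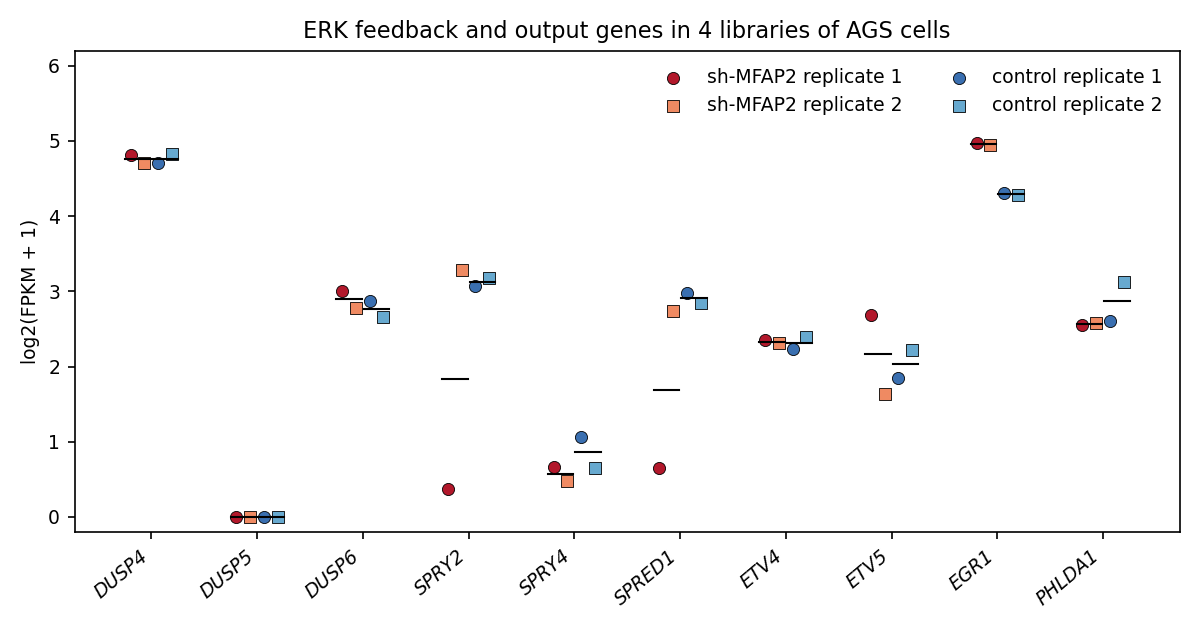
FPKM of the 10 members in each of the 4 libraries, on an axis of log2(FPKM + 1), with 1 mark per library and horizontal lines at the group means on that scale. EGR1 lay near 30 FPKM in both sh-MFAP2 libraries and near 18 FPKM in both controls, whereas the points of SPRY2 and SPRED1 for sh-MFAP2 replicate 1 sat below 1 FPKM and the other 3 libraries above 5 FPKM.

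None of the 8 members tested was called in the comparison of sh-MFAP2 with control cells (limma on log2(FPKM + 1), called at p under 0.01 and Benjamini-Hochberg adjusted p under 0.05). Of all 9873 genes tested, 27 were called (0.273%). Of the 8 members, 1 (EGR1, higher with sh-MFAP2) had an unadjusted p under 0.05, against 12.3% of all genes tested in either direction and 3.89% in that direction. The median log2 fold change of the 8 members was 0.01, beside -0.05 over all genes tested, with 4 members above 0 and 4 below (58.0% of all genes tested were below 0). The libraries of the 2 groups did not overlap for 3 of the 8 members, against 48.9% of all genes tested: both sh-MFAP2 libraries lay above both controls for 1 member (17.5% of all genes) and below them for 2 (31.4%). The smallest two-sided p that exact permutation of 2 against 2 libraries allows is 0.333. In RNA of whole cultures, fewer cells that express a gene and less RNA per cell cannot be told apart.

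EGR1, a zinc finger factor made within minutes of ERK activation, was the member with the smallest p. It lies on chromosome 5 from 138465490 to 138469315 on the plus strand (GENCODE 29 on GRCh38) and has 1 listed transcript with 2 exons, just downstream of the CArG boxes shown above. Its level was 30.4 and 29.7 FPKM in replicates 1 and 2 of sh-MFAP2, beside 18.8 and 18.4 FPKM in those of the control. The 2 groups did not overlap, the knockdown being the higher, and libraries of 1 group differed little from each other. The means were 30.1 ± 0.525 and 18.6 ± 0.243 FPKM (SD, n = 2 each), from about 5830, 5100, 3490 and 4330 reads on the inferred scale. The log2 fold change was 0.67 (SE 0.0997, 95% confidence interval 0.38 to 0.95), which is 1.59-fold on the FPKM + 1 scale (1.30 to 1.93). The unadjusted p was 0.00322 and the limma adjusted p was 0.246, so the difference did not pass the correction over all genes. Over 12 other settings the log2 fold change stayed between 0.65 and 0.73, with adjusted p from 0.178 to 0.863.

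**Figure D2:**
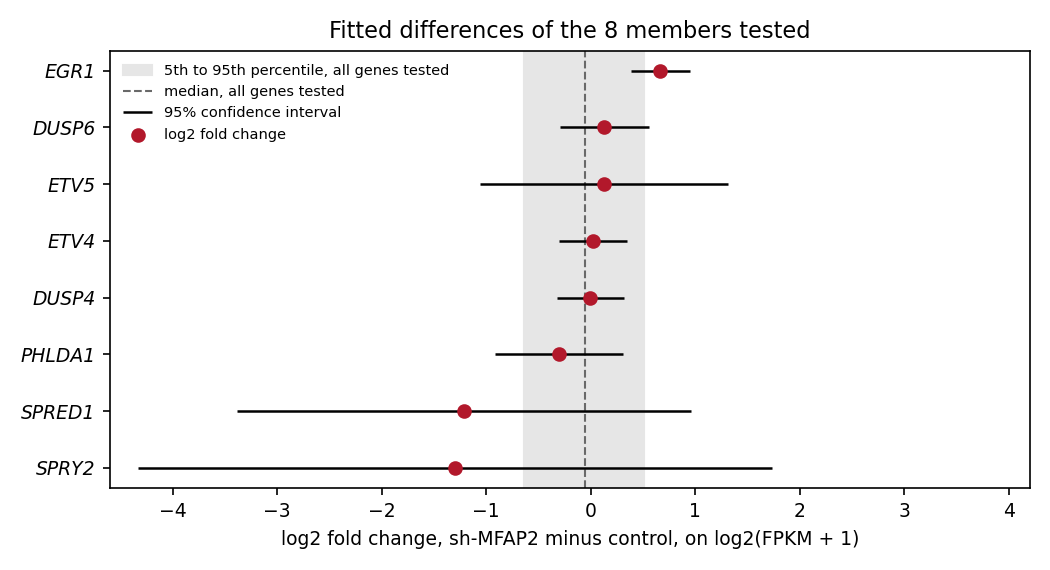
Fitted log2 fold changes (sh-MFAP2 minus control, on log2(FPKM + 1)) of the 8 members tested, with 95% confidence intervals as lines. The grey band spans the 5th to 95th percentile of all genes tested (-0.64 to 0.51) and the dashed line is their median. The interval of EGR1 lies above 0, and those of SPRY2 and SPRED1 are the widest of the 8.

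The DUSP members remove phosphate from ERK, DUSP6 in the cytoplasm and DUSP4 and DUSP5 in the nucleus. DUSP4 lies on chromosome 8 (29333064 to 29350668, minus strand). It was at 27.1 and 25.2 FPKM with sh-MFAP2 and at 25.1 and 27.3 FPKM in controls. The groups overlapped, and the highest library was 1.09 times the lowest. The log2 fold change was -0.00 (SE 0.114, 95% confidence interval -0.33 to 0.32, limma adjusted p = 0.995). This interval, not adjusted for the number of genes, reached about 1.25-fold either way on the FPKM + 1 scale. Nearly all reads fell on 1 of 2 listed transcripts, ENST00000240100 (99.2% to 99.5% of the gene in each library).

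DUSP6, the phosphatase most specific for ERK, lies on chromosome 12 (89347232 to 89353271, minus strand). It was at 7.04 and 5.86 FPKM with sh-MFAP2, and at 6.33 and 5.29 FPKM in controls. Here too the groups overlapped, the spread within each group being larger than the gap between them. Its log2 fold change was 0.13 (SE 0.151, 95% confidence interval -0.30 to 0.56, limma adjusted p = 0.718). An antisense gene, AC024909.2 (mean 1.00 FPKM), overlaps DUSP6 on the other strand, and it is not stated that strand was used in making the values. DUSP5 (chromosome 10, 110497838 to 110511544, plus strand) was listed at 0 FPKM in all 4 libraries, as were both of its transcripts, and it was not tested.

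A value of exactly 0 in these tables cannot by itself be taken as absence of the transcript. JUNB, named after its values were seen, is an immediate early gene listed at 84.4 FPKM in control replicate 1 and at 0 in the other 3 libraries.

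The feedback inhibitors SPRY2 and SPRED1 gave the largest differences among the members tested, and sh-MFAP2 replicate 1 decided them. SPRY2, which blocks growth factor signals upstream of RAF, lies on chromosome 13 (80335976 to 80340951, minus strand). In the sh-MFAP2 cells it was at 0.295 FPKM in replicate 1 and at 8.77 FPKM in replicate 2, and the controls were at 7.39 and 8.07 FPKM. The lowest and the highest of the 4 libraries were both sh-MFAP2 libraries, 29.7 times apart, with about 54.8 and 1460 reads. Its fitted log2 fold change was -1.29 (SE 1.07, 95% confidence interval -4.33 to 1.74, limma adjusted p = 0.618). Without sh-MFAP2 replicate 1 it was 0.16, and without sh-MFAP2 replicate 2 it was -2.75.

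SPRED1, which brings the RAS inactivator neurofibromin to the membrane, behaved likewise. It lies on chromosome 15 (38252326 to 38357249, plus strand). The sh-MFAP2 cells had 0.575 FPKM in replicate 1 and 5.65 FPKM in replicate 2, and the controls 6.85 and 6.18 FPKM. The groups did not overlap, but replicate 2 was near the controls and replicate 1 far below, 11.9 times under the highest library. The log2 fold change was -1.21 (SE 0.764, 95% confidence interval -3.39 to 0.96, limma adjusted p = 0.546). It was -0.17 without sh-MFAP2 replicate 1 and -2.25 without sh-MFAP2 replicate 2.

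The transcripts were examined to see which of them held the low values of these 2 genes. In SPRY2, transcript ENST00000377104 was at 0.118 FPKM in sh-MFAP2 replicate 1, and at 12.2, 10.3 and 11.3 FPKM in sh-MFAP2 replicate 2 and the 2 controls. The longer ENST00000377102 stayed between 0.235 and 0.334 FPKM in all 4 libraries. Thus the low level of SPRY2 was that of the shorter transcript, whose part of the gene's reads was 27.7% in sh-MFAP2 replicate 1 and 96.6% to 97.2% in the others. These transcripts share 1781 exonic bases, 84.4% of the shorter one. In SPRED1, the full-length ENST00000299084 was at 0.565 FPKM in sh-MFAP2 replicate 1, and at 5.94, 7.21 and 6.53 FPKM in the other libraries. A short non-coding transcript of SPRED1, ENST00000561205, lay between 0.203 and 0.412 FPKM, with sh-MFAP2 replicate 1 inside that range. Tested transcript by transcript, neither main transcript passed (limma adjusted p = 0.738 for ENST00000377104 and 0.722 for ENST00000299084).

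**Figure D3:**
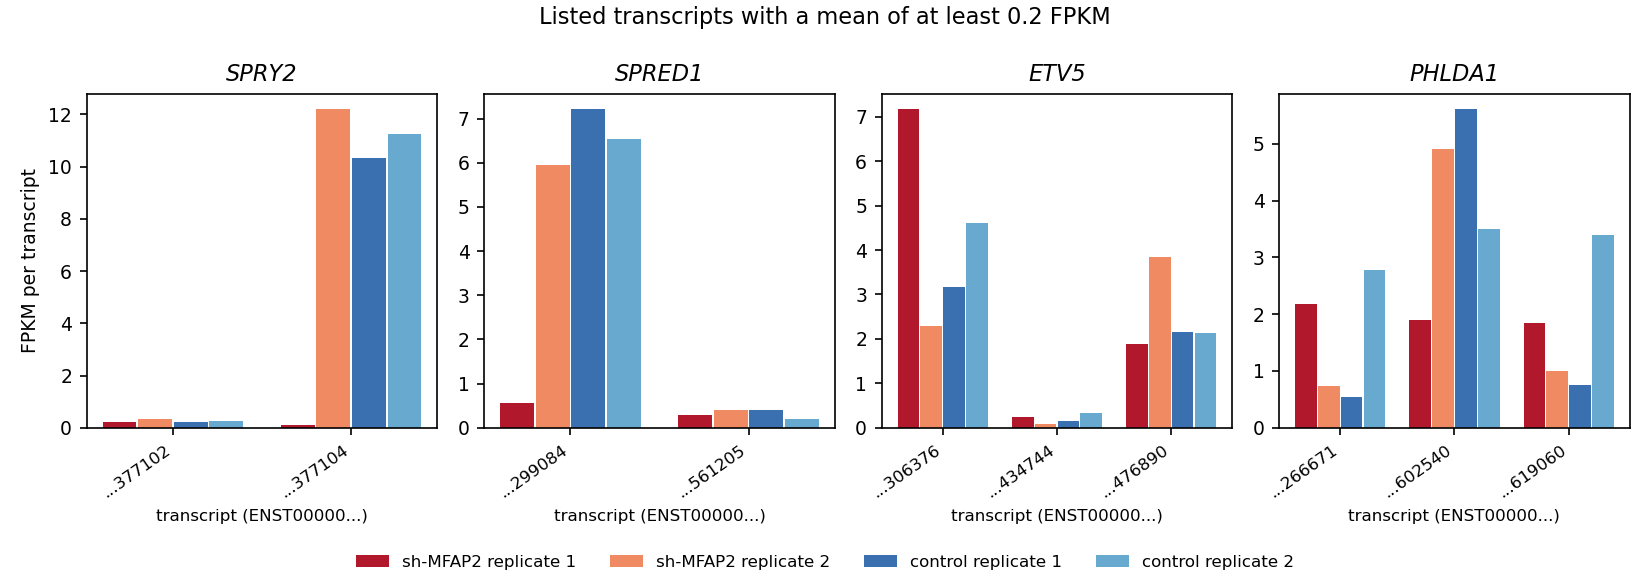
FPKM of the more abundant listed transcripts of SPRY2, SPRED1, ETV5 and PHLDA1 with 1 bar per library. In SPRY2 and SPRED1 a single transcript carried the gene's level and was far lower in sh-MFAP2 replicate 1 than elsewhere, while the minor transcripts stayed under 0.5 FPKM in all 4 libraries.

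Values of this kind were found in every library. A gene was counted as near 0 in a library when it was under 10% of its highest library and that library reached 5 FPKM. Of all genes tested, 203 were near 0 in at least 1 library, and 29 (0.294%) were so in sh-MFAP2 replicate 1 alone, among them SPRY2 and SPRED1. The counts for sh-MFAP2 replicate 2, control replicate 1 and control replicate 2 alone were 22, 21 and 31. Whether these values reflect RNA levels in the cells or the estimate was not tested.

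SPRY4, a relative of SPRY2 under CIC control, lies on chromosome 5 (142310427 to 142326455, minus strand) and was low. It was at 0.583 and 0.40 FPKM with sh-MFAP2 and at 1.10 and 0.565 FPKM in controls. Control replicate 1 stood above the other libraries, and the groups overlapped. Its mean was below the filter. In the fit without a filter the log2 fold change was -0.28 (SE 0.193, 95% confidence interval -0.86 to 0.29, limma adjusted p = 0.732).

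ETV4 and ETV5 are ETS family transcription factors and classical outputs of ERK. ETV4 (chromosome 17, 43527844 to 43579620, minus strand) was at 4.12 and 3.96 FPKM with sh-MFAP2 and at 3.70 and 4.27 FPKM in controls. Both sh-MFAP2 values lay between the control values. A log2 fold change of 0.02 was fitted (SE 0.115, 95% confidence interval -0.31 to 0.34, limma adjusted p = 0.955). ETV4 has 11 listed transcripts, of which ENST00000319349 took 48.7% to 63.2% of the reads, and it overlaps DHX8 (mean 5.02 FPKM) on the opposite strand.

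ETV5 (chromosome 3, 186046308 to 186110318, minus strand) was more variable. With sh-MFAP2 it was at 5.44 FPKM in replicate 1 and at 2.11 FPKM in replicate 2, and in controls at 2.60 and 3.67 FPKM. The sh-MFAP2 libraries were the highest and the lowest of the 4, so the groups overlapped. The log2 fold change of 0.13 (SE 0.418, 95% confidence interval -1.06 to 1.31, limma adjusted p = 0.906) became -0.40 without sh-MFAP2 replicate 1 and 0.65 without sh-MFAP2 replicate 2. Its main transcript, ENST00000306376, had the same order of libraries (7.16 and 2.28 FPKM with sh-MFAP2, 3.17 and 4.60 FPKM in controls). A short non-coding transcript, ENST00000476890, was highest where the main one was lowest (1.89 and 3.84 FPKM with sh-MFAP2, 2.15 and 2.14 FPKM in controls).

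PHLDA1, a pleckstrin homology-like protein induced by growth factors, lies on chromosome 12 (76025447 to 76033932, minus strand). It was at 4.87 and 4.96 FPKM with sh-MFAP2 and at 5.08 and 7.76 FPKM in controls. The sh-MFAP2 libraries were the 2 lowest, but only control replicate 2 stood apart. This gave a log2 fold change of -0.30 (SE 0.215, 95% confidence interval -0.91 to 0.31, limma adjusted p = 0.577), which was -0.57 without control replicate 1 and -0.04 without control replicate 2. Among its 3 transcripts, ENST00000602540 was at 1.89 and 4.90 FPKM with sh-MFAP2 and at 5.60 and 3.50 FPKM in controls. ENST00000266671 was high where that one was low (2.18 and 0.737 FPKM with sh-MFAP2, 0.548 and 2.78 FPKM in controls). The third, ENST00000619060, was at 1.84 and 1.01 FPKM with sh-MFAP2 and at 0.748 and 3.40 FPKM in controls. Its share of the reads equalled that of ENST00000602540 in sh-MFAP2 replicate 1 (27.7%) and control replicate 2 (32.1%). It equalled that of ENST00000266671 in sh-MFAP2 replicate 2 (14.9%) and control replicate 1 (10.8%). The listed split thus paired libraries across the groups, and whether it reflects RNA or the estimate was not tested.

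The rest of the pathway was read from 4 further lists, given with their counts in the same fit. No gene of these lists was called, against 0.273% of all genes tested. An unadjusted p under 0.05 (12.3% of all genes tested) was reached by 2 of the 8 tested relatives of the members, 1 of the 17 tested other genes induced by ERK, 8 of the 17 tested genes of the RAS-RAF-MEK-ERK core and 3 of the 12 tested factors that read ERK. The medians of the log2 fold changes were -0.08, -0.14, -0.12 and -0.11, beside -0.05 over all genes tested. The 3 genes with the smallest p in each list are named below.

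Among relatives, where 9 of 17 genes were below the filter, DUSP16, a phosphatase that prefers JNK and p38, was at 2.98 and 1.68 FPKM with sh-MFAP2 and at 6.42 and 7.13 FPKM in controls. Its groups did not overlap, and the log2 fold change was -1.25 (SE 0.234, limma adjusted p = 0.313). DUSP2, a nuclear phosphatase of ERK, was at 5.56 and 6.64 against 4.24 and 4.30 FPKM (log2 fold change 0.43, limma adjusted p = 0.394). SPRED2, the closest relative of SPRED1, was at 9.15 and 8.32 against 9.84 and 10.3 FPKM (log2 fold change -0.19, limma adjusted p = 0.526). Unlike SPRED1, SPRED2 had no library far from the others.

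Among the other genes induced by ERK, where 5 of 22 were below the filter, FOS had the smallest p. This subunit of AP-1, an immediate early gene like EGR1, was at 9.93 and 10.0 FPKM with sh-MFAP2 and at 6.79 and 7.46 FPKM in controls. Like EGR1 it was higher in both sh-MFAP2 libraries, with a log2 fold change of 0.44 (SE 0.106, limma adjusted p = 0.352). KLF6, a zinc finger factor, was at 13.8 and 6.15 against 20.3 and 21.8 FPKM (log2 fold change -1.10, limma adjusted p = 0.409). PLAUR, the urokinase receptor, was at 7.64 and 6.68 against 5.77 and 5.80 FPKM (log2 fold change 0.26, limma adjusted p = 0.441). In this list 7 of the 17 genes tested did not overlap between groups, against 48.9% of all genes tested, 4 of them above the controls (17.5% of all genes) and 3 below (31.4%).

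In the core list, 13 of the 17 genes tested did not overlap between groups, against 48.9% of all genes. Of the 13 core genes, 3 were above the controls (17.5% of all genes) and 10 below (31.4%). SOS2, an exchange factor that loads RAS, was at 2.26 and 2.11 FPKM with sh-MFAP2 and at 4.60 and 4.66 FPKM in controls (log2 fold change -0.82, SE 0.099, limma adjusted p = 0.169). NRAS was at 23.4 and 27.9 against 7.60 and 11.6 FPKM (log2 fold change 1.35, SE 0.240, limma adjusted p = 0.302). PTPN11, the phosphatase SHP2 that relays receptor signals to RAS, was at 28.3 and 25.7 against 12.3 and 15.8 FPKM (log2 fold change 0.91, SE 0.164, limma adjusted p = 0.302). These 3 genes act upstream of RAF, 1 with a lower and 2 with a higher level in sh-MFAP2 cells, and none passed the correction. Of the 8 core genes with an unadjusted p under 0.05, 6 had lower and 2 had higher values with sh-MFAP2, against 830 and 384 of all 9873 genes. With scaling by the median of ratios the core counts were 3 and 3, where 1118 of all genes reached that p in either direction. They were 4 and 2 with quantile normalization (1131 of all genes) and 3 and 2 with the replicate block (722 of all genes). The core counts also changed with any library left out, as did the count over all genes.

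Of the factors that read ERK, the kinase MKNK1, which ERK activates, was at 1.16 and 1.45 FPKM with sh-MFAP2 and at 2.02 and 2.11 FPKM in controls (log2 fold change -0.41, limma adjusted p = 0.393). ELK1 was at 5.50 and 5.38 against 6.85 and 8.67 FPKM (log2 fold change -0.44, limma adjusted p = 0.399). ELK3, its relative, was at 10.2 and 11.03 against 13.7 and 13.04 FPKM (log2 fold change -0.31, limma adjusted p = 0.403). All 3 were lower in both sh-MFAP2 libraries, and none passed the correction. The count of 3 was 1 with quantile normalization or the median of ratios (1131 and 1118 of all genes) and 0 with the replicate block (722 of all genes). Of the 12 factors tested, 0 were above both controls in both sh-MFAP2 libraries (17.5% of all genes tested) and 7 were below (31.4%).

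**Figure D4:**
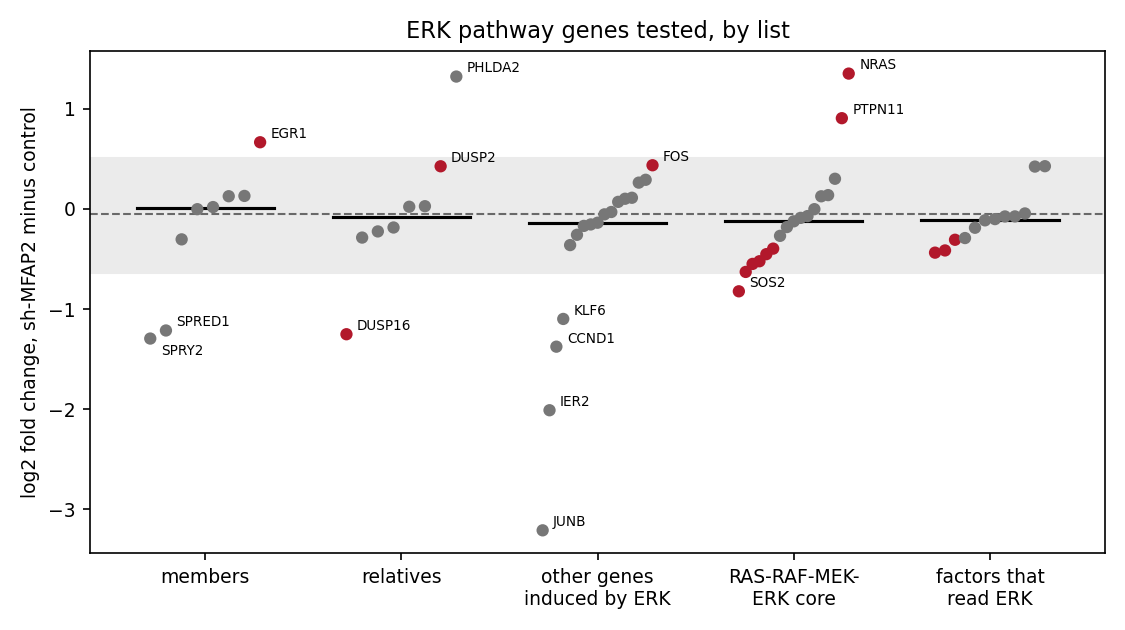
Log2 fold changes (sh-MFAP2 minus control, on log2(FPKM + 1)) of the genes tested in the members' list and the 4 other ERK pathway lists, 1 point per gene. Red points have an unadjusted p under 0.05, black bars are list medians, the grey band spans the 5th to 95th percentile of all genes tested and the dashed line is their median; the 5 list medians lie between -0.14 and 0.01, close to the dashed line at -0.05.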

How the data were processed

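RNA of AGS cells was sequenced in 2 sh-MFAP2 and 2 control libraries. The authors deposited 1 gene table (47251 genes) and 1 transcript table (180500 transcripts), whose values are taken as FPKM from their behaviour, since the tables name no unit. The labels name genome build hg38, and the aligner and the program that estimated FPKM are not given in the sources used here. On low values of single-transcript features, 55.1% to 57.6% lay within 0.05 read of a whole step (10% by chance), which gave the inferred depth; no count test was used, and no interval for a single value can be given.

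The 10 members and the other lists were chosen with earlier results of these data known. All 10 members, MFAP2 and the 3 genes with the smallest unadjusted p in each other list were named. Genes averaging 1 FPKM or more were fitted by limma 3.58.1 in R 4.3.3 (lmFit, then eBayes with trend) on log2(FPKM + 1) and adjusted by Benjamini-Hochberg over all 9873 genes. The fit was tested on simulated data. Coordinates came from GENCODE 29 and promoters from RefSeq. Alternatives changed the filter, pseudocount, scaling, block, trend, thresholds and transcript sums, and left out each library; the fit of single transcripts was added after the data were seen. Other tools were matplotlib 3.10.9, numpy 2.4.6, pandas 2.3.3 and Python 3.11.15.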

Additional observations from a re-analysis of the deposited data

How the results depend on the processing

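No member was called at p under 0.01 and adjusted p under 0.05 under any filter, pseudocount, scaling, trend or transcript sum tried, nor with any library left out (0 to 0). At an unadjusted p under 0.05 alone, 1 member was, beside 1214 of all genes, and 2 relatives, 1 induced gene, 8 core genes and 3 factors. Over all genes, 27 calls became 46 at an adjusted p under 0.1 alone, 6 without a filter, 9 at a mean of at least 5 FPKM and 0 with any library left out (0 to 0), where 555 to 2166 genes had an unadjusted p under 0.05.

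Over all genes tested, same-numbered libraries did not deviate together (correlation -0.0572). With 2 libraries per group this is a single comparison, which cannot decide whether the replicate number pairs them. With the replicate block no gene was called by limma (0, with 722 at an unadjusted p under 0.05), and the limma adjusted p of EGR1 was 0.614.

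DUSP6, EGR1, PHLDA1 and SPRED1 kept their sign throughout, but with a library left out DUSP6 ranged from 0.0156 to 0.245, PHLDA1 from -0.57 to -0.04 and SPRED1 from -2.25 to -0.17. DUSP4 turned to 0.0205 (quantile normalization) and 0.0672 (median of ratios) and ranged from -0.0614 to 0.0569 with a library left out. ETV4 turned to -0.0134 with transcript sums and ranged from -0.0640 to 0.102. ETV5 ranged from -0.40 to 0.65, and SPRY2 from -2.75 to 0.16, positive only without sh-MFAP2 replicate 1. With a pseudocount of 0.1, SPRY2 was -2.06. Without sh-MFAP2 replicate 2, SPRY2 and SPRED1 had the smallest adjusted p of members, 0.132 and 0.136, with the lone library assumed to vary like the controls. Beyond the SPRY2, SPRED1, ETV5 and PHLDA1 libraries named in the report, the cause of these shifts was not tested. Among factors that read ERK, the count at an unadjusted p under 0.05 depended on the library left out, as did that over all genes. The median over the relatives was 0.43 at a mean of at least 5 FPKM, where only 3 relatives were tested. That over the induced genes ranged from -0.25 to 0.00. The median over all genes moved from -0.05 to 0.01 with the median of ratios.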
